A study of Homo sapiens with 4 samples.

Results

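SREBP transcription factors and the endoplasmic reticulum (ER) proteins that control them are described here by 7 genes, SREBF1, SREBF2, SCAP, INSIG1, INSIG2, MBTPS1 and MBTPS2. Members were all probe sets that the platform annotation assigns to exactly 1 of these genes. They number 15 of 41091 such probe sets, for 7 of 19775 genes. Transcript levels were measured on 4 Affymetrix expression arrays of HEK293, an established human embryonic kidney cell line, grown for 7 days in DMEM with 10 % FCS. High glucose cultures (450 mg/dl, 2 arrays) were compared with low glucose cultures (100 mg/dl, 2 arrays). Per the labels the arrays of a group are biological replicates, with nothing on how separate their cultures were, so p-values measure only the spread between these samples, which may be technical.

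SREBPs are made as precursors anchored in the ER membrane, where each binds SCAP, an escort protein that senses cholesterol. When ER cholesterol is high, SCAP binds INSIG1 or INSIG2 and the complex is retained. When it is low, SCAP carries the precursor in COPII vesicles to the Golgi, where the site-1 protease (MBTPS1) and then the site-2 protease (MBTPS2) cut it and release a factor that enters the nucleus. SREBP-2, from SREBF2, is best known for cholesterol synthesis and uptake genes and SREBP-1, from SREBF1, for fatty acid synthesis genes. INSIG1, SREBF2 and SREBF1 are themselves known targets of nuclear SREBPs. The arrays measure transcripts, and neither cleavage nor nuclear protein was measured.

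Signals had been scaled by the authors, so that the mean signal after trimming 2% at each end was 200.02 on every array. The log2 difference between groups had a median of -0.06 over the 27307 probe sets tested and of 0.11 after median centring, so a small difference has no settled direction. Probes for bacterial poly-A transcripts, which are spiked into RNA before labelling, were higher in high glucose by a median of 1.94 log2 units, on both arrays for all 24 probe sets. Signals of ribosomal RNA probes, too, exceeded those in low glucose, by 1.73 log2 units in the median, with array medians of 202 and 294 in high glucose, against 67.4 and 76.3 in low glucose, and 5 of 6 probe sets separated the groups. Hybridisation controls had array medians of 486 and 875 in high glucose, against 869 and 891 in low glucose, so that high glucose replicate 1 stood apart. The part of these controls in the differences below was not tested. Of 7 HEK293 markers 5 passed the signal filter, and NEFM and PROM1 did not. The summed marker signal was 20828 to 23463 in high glucose and 19244 to 19677 in low glucose, but single markers moved in opposite directions. VIM, vimentin, read 5567 and 5971 in high glucose, against 10580 and 11041 in low glucose. The keratin KRT18 read 8315 and 9775 in high glucose, against 4293 and 4309 in low glucose, and KRT8 read 5545 and 6493 in high glucose, against 2845 and 2897 in low glucose. In the lists for kidney tubule and glomerulus, hepatocytes, leukocytes, endothelium and fibroblasts, 1 of 4, 0 of 4, 0 of 3, 1 of 3 and 1 of 4 markers passed it.

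Transcripts of the pathway were lower in high glucose, and by very different amounts. INSIG1 had the largest falls among the members, with log2 differences of -2.80 to -2.49 in its 3 probe sets. The brightest probe sets of SREBF2 and SREBF1 had log2 differences of -2.11 and -2.0, and INSIG2 fell by 0.95. By their brightest probe sets the proteases and SCAP fell by less or did not pass. A dimmer probe set of MBTPS1 stood at -1.23. Of the 13 probe sets above a filter signal of 32.9, 11 were called lower and 0 higher (limma, adjusted p under 0.05), while 27.2% of all probe sets tested were called lower and 23.1% higher. A fall of at least 2-fold was called for 6 of the 13, against 7.13% of all tested. In 12 of the 13 both high glucose arrays lay below both low glucose arrays, as they did in 41.5% of all tested. The median log2 difference of the 13 was -0.98. For 6 of the 7 genes the brightest probe set was called lower, against 32.6% of all 12242 genes by theirs. Of these, SCAP lost its call under 5 processing alternatives. MBTPS2 was called lower only in a dimmer probe set.

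**Figure D1:**
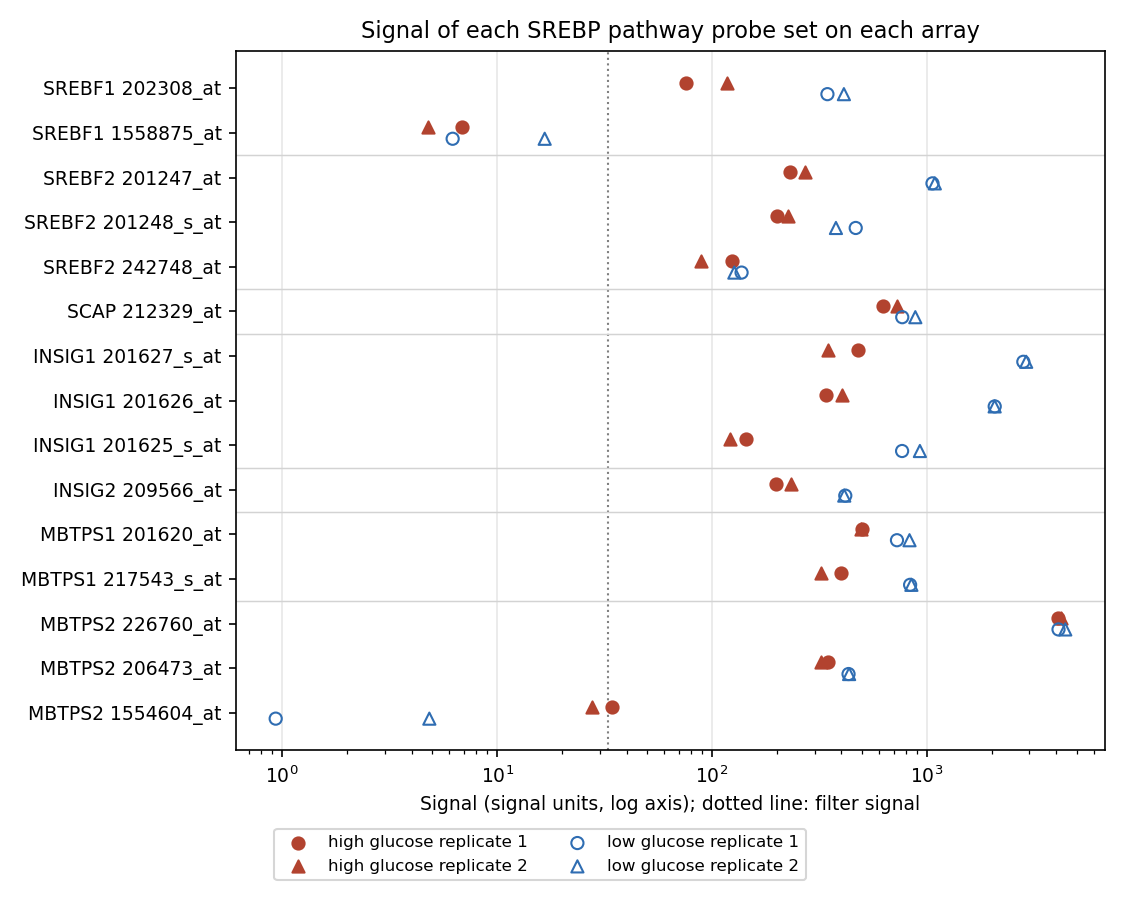
Signal of each of the 15 probe sets (rows, by gene) on each array, on a log axis in signal units; filled red symbols are high glucose and open blue symbols low glucose, and the dotted line is the filter signal of 32.9. The INSIG1 signals in high glucose, between 121 and 480.2, lie well to the left of those in low glucose, between 767 and 2897.

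SREBF2 encodes SREBP-2, the main activator of cholesterol synthesis genes. Its probe set 201247_at read 229.6 and 270.0 signal units in high glucose, against 1062 and 1089 in low glucose. Every high glucose value was below every low glucose value by a wide margin, and the difference was -2.11 ± 0.09 log2 units (SE, n = 2 arrays per group, limma adjusted p = 7.6e-06), a level 4.32-fold lower. Only 193 of the 27307 probe sets tested had a difference this low or lower. The other SREBF2 probe sets moved less. For 201248_s_at the signals were 201 and 225 in high glucose, against 466 and 377 in low glucose, a log2 difference of -0.98 ± 0.12 (adjusted p = 0.00064). For 242748_at they were 123 and 88.6 in high glucose, against 137 and 127 in low glucose. The groups there hardly separated, at -0.34 log2 units with a 95% interval of -0.80 to 0.13, and the probe set did not pass (adjusted p = 0.19). The 3 probe sets of SREBF2 thus spanned 1.77 log2 units. Among the 1660 genes with 3 tested probe sets the median span was 0.63, and 66 genes (3.98%) had a span as wide or wider.

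SREBF1 encodes the SREBP-1 proteins, activators of fatty acid synthesis genes. Its probe set 202308_at read 75.6 and 117 in high glucose, against 344 and 411 in low glucose. The groups were far apart, although the high glucose arrays also differed from each other, and the log2 difference was -2.0 ± 0.21, or 4.0-fold lower (limma adjusted p = 0.00027). Its other probe set, 1558875_at, read 6.85 and 4.78 in high glucose, against 6.21 and 16.6 in low glucose. These signals overlap between the groups and lie below the filter, so that the result for SREBF1 rests on 1 probe set. The changes of SREBF1 and SREBF2 could not be told apart. Their difference within arrays was 0.11 log2 units, with overlapping groups (exact two-sided permutation p = 0.67, where 2 arrays against 2 cannot go below 0.33).

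The promoters of both genes are shown because both transcripts fell and nuclear SREBPs are known to act on these genes. They are RefSeq windows of 300 bases in GRCh38.p14, from 250 before to 50 after the transcript start, and the arrays do not show which start was used. Capitals mark exact matches on either strand to TCACNCCAC (a sterol regulatory element, SRE), CCAAT (the NF-Y box), GGGCGG (the Sp1 box) or CACGTG (an E-box).
SREBF2 promoter, chr22:41832855-41833154, plus strand: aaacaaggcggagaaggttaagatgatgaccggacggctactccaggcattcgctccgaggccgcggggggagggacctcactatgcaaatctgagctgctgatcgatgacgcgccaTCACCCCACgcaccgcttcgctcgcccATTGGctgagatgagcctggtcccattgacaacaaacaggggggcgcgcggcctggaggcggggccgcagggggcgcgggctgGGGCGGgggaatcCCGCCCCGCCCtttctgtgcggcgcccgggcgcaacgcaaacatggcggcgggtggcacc
SREBF1 promoter, chr17:17836937-17837236, minus strand: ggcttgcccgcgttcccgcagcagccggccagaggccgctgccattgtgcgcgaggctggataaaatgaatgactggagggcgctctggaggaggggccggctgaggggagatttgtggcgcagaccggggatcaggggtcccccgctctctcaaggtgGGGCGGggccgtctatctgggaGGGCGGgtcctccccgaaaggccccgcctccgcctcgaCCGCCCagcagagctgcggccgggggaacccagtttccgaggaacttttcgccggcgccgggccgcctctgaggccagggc
The SREBF2 window holds an SRE from 133 to 125 bases before the start, a form found in 1.13% of all 35116 such windows. An NF-Y box lies from 106 to 102 bases before the start, and 34.6% of windows hold one. The SREBF1 window holds 3 Sp1 boxes, present in 45.0% of windows, and neither SRE nor NF-Y box in these letters. None of the other 6 member windows holds the SRE. The ATF4 element TGATGNAA occurs in 0 of the 8 windows, against 3.62% of all.

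Both SREBF genes also carry a microRNA of the miR-33 family within the gene. The mature forms are given from RefSeq (GRCh38.p14), with the seed, bases 2 to 8, in capitals.
hsa-miR-33a-5p, in SREBF2, chr22:41900949-41900969, plus strand: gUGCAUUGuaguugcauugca
hsa-miR-33b-5p, in SREBF1, chr17:17813897-17813916, minus strand: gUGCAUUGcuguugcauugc
They share the seed UGCAUUG and are known to repress cholesterol efflux genes. Their own levels were not analysed here, and the values above are those of the host transcripts only.

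INSIG1 encodes the ER membrane protein that retains SCAP when sterols are plentiful. All of its probe sets agreed. The signals of 201627_s_at were 480.2 and 348 in high glucose, against 2810.1 and 2897 in low glucose, a log2 difference of -2.80 ± 0.14, or 6.98-fold lower (limma adjusted p = 1.2e-05). Those of 201626_at were 338 and 402 in high glucose, against 2068 and 2067 in low glucose, a log2 difference of -2.49 ± 0.09 (adjusted p = 3.6e-06). Those of 201625_s_at were 143 and 121 in high glucose, against 767 and 928 in low glucose, a log2 difference of -2.68 ± 0.13 (adjusted p = 1.1e-05). In each, the lowest low glucose array was at least 5.14 times the highest high glucose array. The probe sets spanned 0.31 log2 units, and 80.4% of genes with 3 tested probe sets had a span at least as wide. They ranked 55th, 107th and 72nd from the lowest of 27307 differences.

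INSIG1 promoter, chr7:155297628-155297927, plus strand: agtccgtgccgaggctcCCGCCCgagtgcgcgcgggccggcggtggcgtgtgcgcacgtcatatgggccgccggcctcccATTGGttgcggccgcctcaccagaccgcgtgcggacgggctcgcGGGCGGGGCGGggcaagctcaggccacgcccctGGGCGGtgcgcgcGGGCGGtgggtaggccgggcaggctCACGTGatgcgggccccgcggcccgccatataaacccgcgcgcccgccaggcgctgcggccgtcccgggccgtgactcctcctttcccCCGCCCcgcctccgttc
This window, shown for the member with the largest fall, holds an NF-Y box from 170 to 166 bases before the start, 6 Sp1 boxes of which 1 pair overlaps by a base, and an E-box from 55 to 50 bases before the start. E-boxes of these letters occur in 7.26% of windows.

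INSIG2, the paralog of INSIG1 with the same retention role, fell less. Its only probe set, 209566_at, read 198 and 232 in high glucose, against 417 and 412 in low glucose. The groups did not overlap, and the difference was -0.95 ± 0.11 log2 units (limma adjusted p = 0.00034), or 1.93-fold lower. Of all probe sets tested, 8.29% had a difference this low or lower. Within arrays, the change of INSIG1 exceeded that of INSIG2 by 1.85 log2 units, or 3.61-fold. The ratio separated the groups by 1.47 log2 units, while the replicate arrays differed in it by 0.70 in high glucose and 0.06 in low glucose (exact permutation p = 0.33, the smallest possible). Such a ratio does not depend on the scale factor of an array.

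SCAP, the escort that INSIG proteins hold back, differed little. Probe set 212329_at read 627 and 729 in high glucose, against 768 and 883 in low glucose. The higher high glucose array and the lower low glucose array were close, and the difference of -0.29 ± 0.10 log2 units just passed (limma adjusted p = 0.046). The call was lost after median centring, with no filter, with no variance trend, without high glucose replicate 1 and without low glucose replicate 2 (adjusted p = 0.41, 0.089, 0.15, 0.21 and 0.18), over a range of 0.0093 to 0.41 across alternatives. Relative to the median of all probe sets SCAP stood at -0.23. Within arrays INSIG1 fell by 2.52 log2 units more than SCAP and SREBF2 fell by 1.82 more (exact permutation p = 0.33 each, the smallest possible), with no overlap of the groups in either.

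SCAP promoter, chr3:47475892-47476191, minus strand: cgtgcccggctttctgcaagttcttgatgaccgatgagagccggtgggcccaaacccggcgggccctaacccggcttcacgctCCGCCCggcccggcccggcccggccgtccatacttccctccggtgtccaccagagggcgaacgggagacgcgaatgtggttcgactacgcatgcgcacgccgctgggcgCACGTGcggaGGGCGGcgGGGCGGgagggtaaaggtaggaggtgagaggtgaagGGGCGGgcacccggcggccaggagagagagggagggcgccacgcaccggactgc
The SCAP window is shown as that of a member with a small difference. It holds 4 Sp1 boxes and an E-box from 58 to 53 bases before the start, and neither SRE nor NF-Y box in these letters.

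MBTPS1, the site-1 protease, is a subtilisin-like enzyme that makes the first cut. For 201620_at the signals were 499 and 495 in high glucose, against 726 and 829.9 in low glucose, a log2 difference of -0.64 ± 0.08 (limma adjusted p = 0.00062). For 217543_s_at they were 399.6 and 321 in high glucose, against 835 and 847 in low glucose, a log2 difference of -1.23 ± 0.11 (adjusted p = 0.00011). Both probe sets separated the groups, and their differences lay 0.59 log2 units apart. Of the 3471 genes with 2 tested probe sets, 28.4% had a span at least as wide.

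MBTPS2, the site-2 protease, is a membrane metalloprotease that makes the second cut. The brightest, 226760_at, read 4077 and 4228 in high glucose, against 4098 and 4405 in low glucose. These overlap, and the difference was -0.03 log2 units with a 95% interval of -0.19 to 0.13 (limma adjusted p = 0.71). For 206473_at the signals were 346 and 323 in high glucose, against 432 and 435 in low glucose, a log2 difference of -0.37 ± 0.08 (adjusted p = 0.0068), which was not called after median centring (adjusted p = 0.11, from 0.0066 across alternatives). These tested probe sets spanned 0.34 log2 units, and 51.2% of genes with 2 tested probe sets had a span at least as wide. The dim 1554604_at read 34.1 and 27.5 in high glucose, against 0.932 and 4.84 in low glucose, with a mean below the filter. A further probe set, 216531_at, is annotated to both YY2 and MBTPS2 and so is no member. It read 418 and 335 in high glucose, against 416 and 348 in low glucose. Within arrays the brightest probe set of MBTPS1 fell by 0.61 log2 units more than that of MBTPS2 (exact permutation p = 0.33, the smallest possible), and the groups did not overlap.

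**Figure D2:**
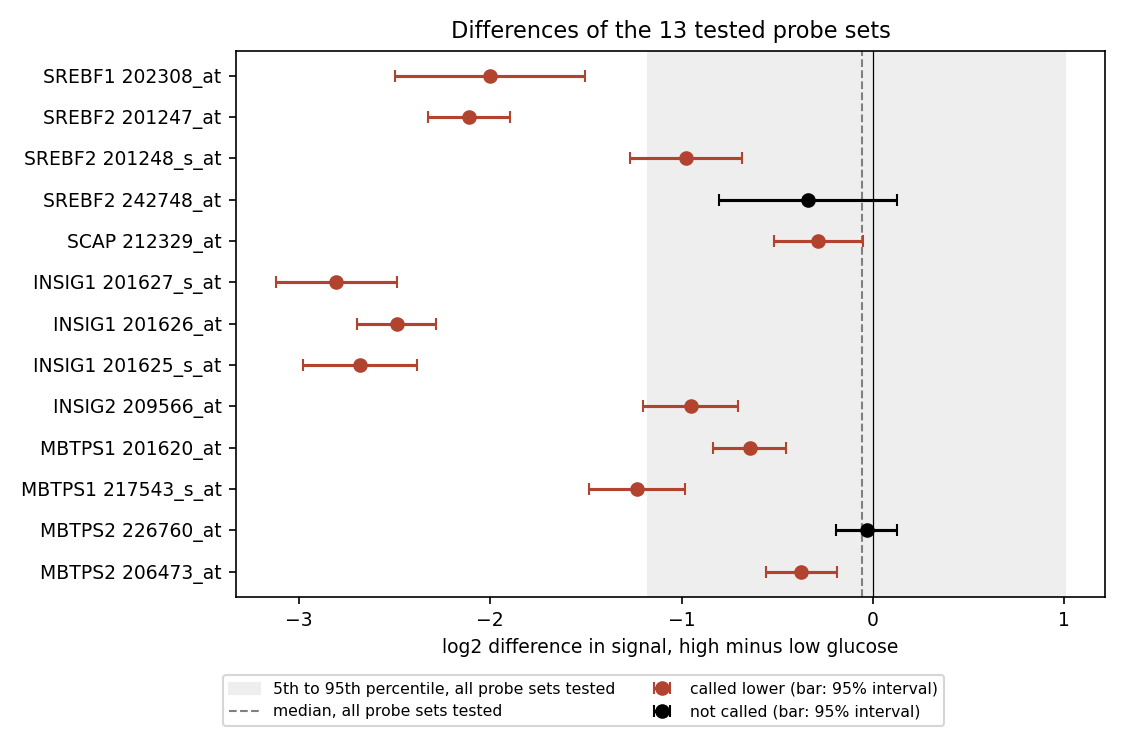
Log2 difference in signal, high minus low glucose, for each of the 13 tested probe sets (rows), with 95% intervals from the limma fit; red points were called lower and black points were not called. The grey band is the 5th to 95th percentile of all probe sets tested (-1.18 to 1.00) and the dashed line their median of -0.06; the INSIG1, SREBF1 and brightest SREBF2 probe sets lie left of the band, and MBTPS1 217543_s_at lies just outside it at -1.23.

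Among 12241 other genes, each by its brightest probe set, the patterns most like INSIG1 over the 4 arrays were those of FIBIN, PTCHD1 and TCP11L2, at Euclidean distances of 0.10, 0.22 and 0.26 log2 units after centring. Those most like SREBF2 were ABCB4, ZNF843 and HS1BP3, at 0.02, 0.12 and 0.14. Those most like SREBF1 were RIMKLA, TMEM44 and PTGER1, at 0.12, 0.14 and 0.17. With 4 arrays in 2 groups, this likeness rests largely on the group difference.

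Other genes of the pathway were then described by list, each gene by its brightest probe set. Of all 12242 genes, 32.6% were called lower and 23.8% higher, with a median log2 difference of -0.10. Lists were chosen with earlier results of these data known, and the counts are to be read against these shares.

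Transcripts of known SREBP-2 targets, here enzymes of sterol synthesis and the carrier STARD4, were lower in high glucose in 16 of 18 measured genes (88.9%) and higher in 0, with a median of -0.88. Of the 25 genes in this list NPC1L1 was below the filter and 6 were not analysed here, and no uptake gene is among the 18. LSS, which cyclises squalene epoxide, read 701 ± 34 in high glucose and 2335 ± 132 in low glucose (SD, n = 2), a log2 difference of -1.74. SQLE, squalene epoxidase, fell by 1.56 in its brightest probe set, with -1.45, -0.81 and -0.54 in the others, the last not called. MVD, mevalonate diphosphate decarboxylase, fell by 1.39 and STARD4, a sterol carrier, fell by 1.02. Without probe sets ending in _x_at or _s_at, which can match several transcripts, 9 genes of this list were called lower. ACAT2, PMVK, MVD, TM7SF2 and HSD17B7 were tested only by such a probe set and were then not measured. The drop from 16 is larger than these genes account for, and the rest of it was not traced.

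Known SREBP-1 targets were lower in 8 of 17 (47.1%) and higher in 4 (23.5%), against 32.6% and 23.8% of all genes. The share called higher was thus near that of all genes, and the median of -0.10 was that of all genes. ACACA, called lower by its brightest probe set, had another at 0.97, called higher. SCD5, called higher by its brightest probe set, had others at -0.32 and -0.28, not called. FADS2, a fatty acid desaturase, read 412 ± 4 in high glucose and 1608 ± 17 in low glucose, a log2 difference of -1.96. SCD, a further desaturase, fell by 1.44, LPIN1, a phosphatidate phosphatase, fell by 1.33 and ACSS2, which makes acetyl-CoA, fell by 1.29. ME1, malic enzyme, rose by 1.19 and GPAM, a glycerol phosphate acyltransferase, by 0.42. ELOVL6, a fatty acid elongase, rose by 0.60 in its brightest probe set, with 0.38 and 0.26 in the others, which were not called. By their brightest probe sets FASN (fatty acid synthase), ACLY, SLC25A1, ACSL1 and PNPLA3 were not called, at 0.06, -0.10, -0.03, 0.06 and 0.10.

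Genes for ubiquitin-dependent degradation at the ER, a route that INSIG proteins take, were lower in 7 of 13 (53.8%) and higher in 3 (23.1%), with a median of -0.28. After median centring 3 were called lower and 4 higher, and with no variance trend 3 lower and 1 higher. RNF145, a ubiquitin ligase that acts on SCAP, fell by 1.06 log2 units in the brighter of its probe sets and stood at -1.27 in the other. TMUB1 fell by 0.59, USP20, a deubiquitinase, fell by 0.53, and the ligase MARCHF6 fell by 0.49 in its brightest probe set, with -0.47, -0.09 and 0.04 in the others. VCP, the ATPase that extracts ubiquitinated proteins from the ER, rose by 0.36 and its cofactor UFD1 by 0.27. The conjugating enzyme UBE2G2 rose by 0.34 in its brightest probe set and stood at -0.06 and 0.08 in the others.

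Genes for COPII transport and Golgi handling of SCAP were lower in 4 of 15 (26.7%) and higher in 3 (20%), with a median of -0.07, and 8 did not pass. After median centring 3 were called lower and 6 higher. SEC24D, a COPII cargo adaptor, fell by 1.67 log2 units and CRTC2, which binds the COPII subunit SEC31A, fell by 0.83. SAR1B, a GTPase that starts the COPII coat, rose by 1.29 in its brightest probe set and stood at 0.50, 0.66 and -0.09 in the others. SEC23B rose by 0.55 in its brightest probe set, with 0.11 and 0.08 in the others, and SEC24A rose by 0.28.

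Other substrates of the site-1 and site-2 proteases were lower in 4 of 6 (66.7%) and higher in 1. ATF6, an ER stress transcription factor, read 460.2 ± 6.9 in high glucose and 1017 ± 92 in low glucose, a log2 difference of -1.14 in its brightest probe set. Of its other probe sets 2 stood at -1.21 and -1.35 and 1 at 1.45. CREB3L4, a transcription factor of the same class, fell by 0.80, CREB3, another, fell by 0.47, and GNPTAB, a lysosomal enzyme tagging transferase cut by the site-1 protease, rose by 0.44. CREB3L1 and CREB3L3 were below the filter.

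Nuclear partners and turnover factors of SREBPs were lower in 6 of 13 (46.2%) and higher in 2 (15.4%), with a median of -0.22. After median centring 2 were called lower and 3 higher, and with no variance trend 3 lower and 1 higher. MED15, a Mediator subunit that SREBPs bind, fell by 0.74 log2 units. GSK3B, a kinase that marks nuclear SREBPs for degradation, fell by 0.41 in its brightest probe set, with -0.53, -0.59 and 0.94 in the others. SIRT1, a deacetylase, fell by 0.31, and CDK8, a kinase of Mediator, rose by 0.39, with 0.00 and 0.53 in its other probe sets. SP1, a promoter partner, rose by 0.21 in its brightest probe set and stood at 0.14, -0.15 and -0.26 in the others.

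Genes of the oxysterol receptors (LXR) and of cellular sterol transport were lower in 11 of 13 (84.6%) and higher in 1, with a median of -0.74. ABCG1, a sterol exporter that LXR is known to induce, read 36.0 ± 2.3 in high glucose and 167 ± 38 in low glucose, a log2 difference of -2.20. NPC2, which carries cholesterol in lysosomes, fell by 1.71, GRAMD1A, a sterol carrier between the plasma membrane and the ER, fell by 1.26 and RXRB, a partner of LXR, fell by 0.94. NR1H3, LXR-alpha, rose by 0.65, but 0 genes of this list were called higher without high glucose replicate 1 or without low glucose replicate 2. The lower calls numbered 7 without _x_at and _s_at probe sets, where ABCG1 was not measured. ABCG1 alone does not account for that drop from 11. RXRA, MYLIP and SOAT1, called lower by their brightest probe sets, had others that were called higher. These stood at 0.81 for RXRA, 0.81 for MYLIP, and 0.89 and 0.71 for SOAT1. RXRG, ABCA1, CH25H and CYP27A1 were below the filter.

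**Figure D3:**
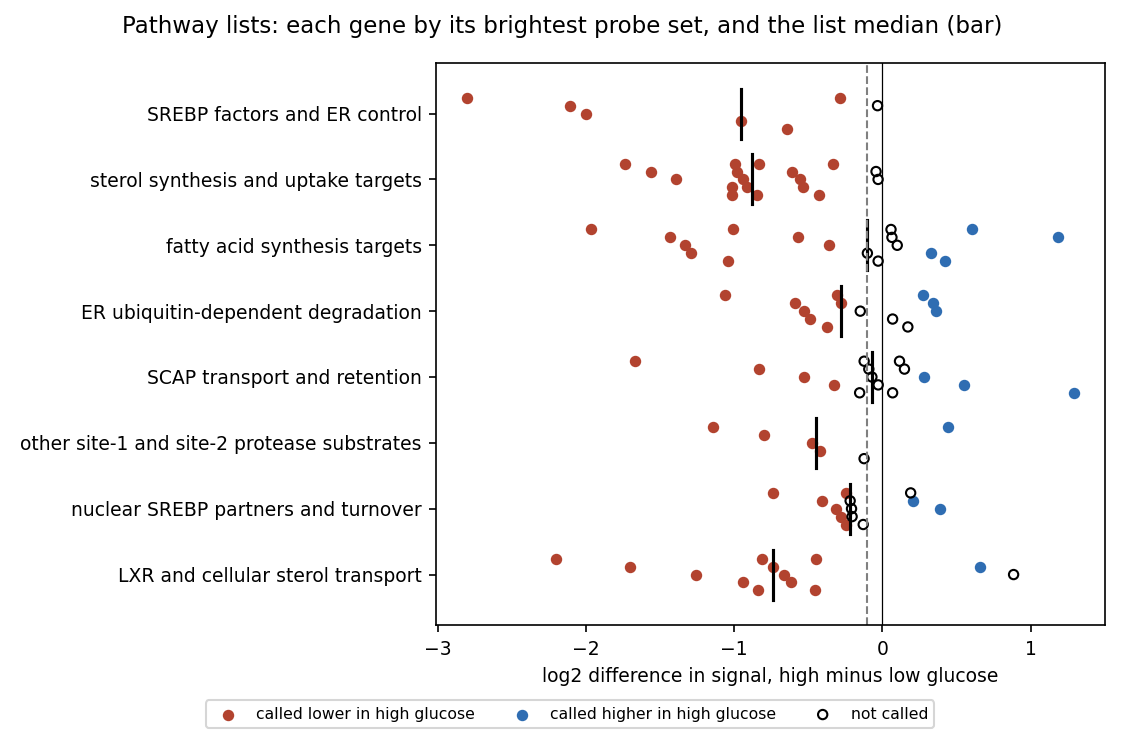
Log2 difference in signal, high minus low glucose, of each gene by its brightest probe set (points), for the 7 SREBP genes and 7 pathway lists (rows); the black bars are list medians and the dashed line is the median of all genes (-0.10). Points for sterol synthesis lie almost all to the left, with 16 of 18 called lower, while those for fatty acid synthesis lie on both sides.

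Across the processing alternatives INSIG1 ranged from -3.03 to -2.32 over its probe sets, the brightest SREBF2 probe set from -2.23 to -1.94, SREBF1 from -2.31 to -1.68 and INSIG2 from -1.07 to -0.78, all called under every alternative run on them.

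**Figure D4:**
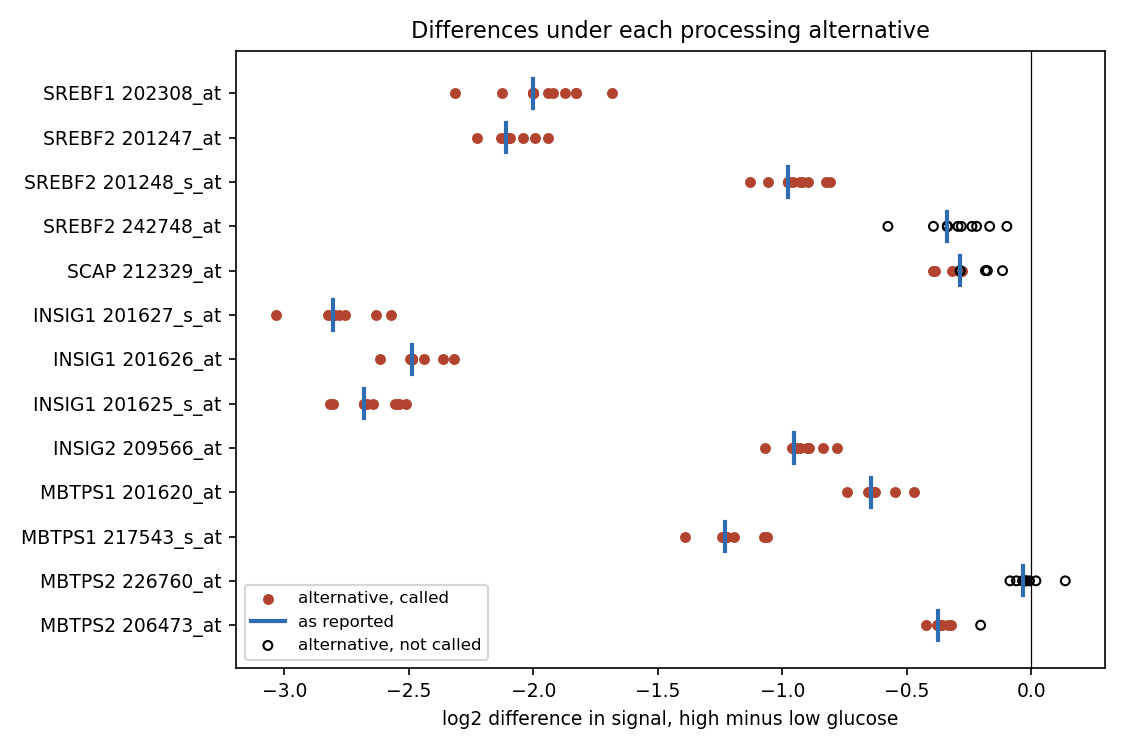
Log2 difference in signal, high minus low glucose, of each tested probe set (rows) under each processing alternative; filled red points were called, open points were not, and the blue bar is the value as reported. INSIG1, INSIG2, SREBF1, MBTPS1 and 2 probe sets of SREBF2 were called throughout, whereas SCAP lost its call under 5 alternatives.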

How the data were processed

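Total RNA of HEK293 cells was labelled with biotin and hybridised to Affymetrix arrays, per the labels' protocols. The deposited values are intensities in linear signal units, and the submitters' processing notes name GCOS. No other step is given in the sources used here. Detection calls were not used, so a low signal says nothing about presence, and the number of arrays limits the precision.

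The table held 54675 probe sets, 62 of them controls, which were left out. GEO's platform annotation gave 1 gene for 41097, several for 1801 and none for 11777, and symbols were updated by gene identifier for 41043. Signals were log2-transformed and probe sets were kept if their average on this scale reached the median of all, a signal of 32.9, leaving 27307. limma 3.58.1 in R 4.3.3 (lmFit, eBayes with an intensity trend) compared high with low glucose, with p-values two-sided and adjusted by the Benjamini-Hochberg method over all 27307. Adjusted p-values are from this fit, unless an alternative or a permutation test is named. A run of the fit on simulated data, with independent noise and few changed probe sets, does not show how well these p-values hold. Fold changes are on the log2 signal scale, high against low glucose. Members, lists and tests were chosen with earlier results of these data known. All member probe sets were named. From each list came the 4 called genes with the largest difference and up to 3 called against its main direction. Some other genes are named for probe sets of opposite sign or as not called. Distances were taken for INSIG1, SREBF1 and SREBF2. For the 5 pairs of members compared within arrays, exact permutation p-values are given without adjustment for the number of pairs, and none was below 0.33. List genes without a probe set naming 1 gene were not analysed here. Alternatives covered normalization, filter, a pseudocount of 16, variance trend, probe set choice, the replicate block and leaving out each array.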

Additional observations from a re-analysis of the deposited data

Results flagged for a closer look

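The dim MBTPS2 probe set 1554604_at, which the filter removed, was higher on both high glucose arrays (34.1 and 27.5 signal units) than on the low glucose arrays (0.932 and 4.84). In the fit with no filter its log2 difference was 3.85 ± 1.02 (limma adjusted p = 0.032), opposite in sign to the other MBTPS2 probe sets. Signals this low are not shown to be above background, and the difference on the log scale depends on them.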

How the results depend on the processing

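Over 15 alternatives, the 13 tested probe sets kept their direction and their side of the threshold in 162 of 170 recomputed values. SCAP lost its call in 5 and MBTPS2 206473_at in 1, as given above. The brightest MBTPS2 probe set, not called in any, turned to 0.14 after median centring and ranged from -0.085 to 0.019 when 1 array was left out, the last without low glucose replicate 2. Median centring also raised the share of higher among all called probe sets to 63.0%, against 45.9% with the authors' scaling. With 13759 probe sets called in all and 11 members lower, 7049 and 6 were called with the brightest probe set per gene, 8032 and 7 once _x_at and _s_at probe sets were dropped, and 9115 in all with the stricter filter, settings that test fewer probe sets. With no filter, 1 member was called higher. Sterol synthesis targets called lower fell to 9 without _x_at and _s_at probe sets. This leaves several of these genes unmeasured, but those named above do not account for the whole drop. ER ubiquitin-dependent degradation genes called lower numbered 3 after median centring and 3 with no trend, and those called higher numbered 1 with no trend and 1 on dropping _x_at and _s_at probe sets. SCAP transport genes called higher numbered 6 after median centring. Other protease substrates called higher numbered 0 with the mean of probe sets, and 2 were lower and 0 higher on dropping _x_at and _s_at probe sets. Nuclear partners called lower numbered 2 after median centring, 3 with no trend and 3 on dropping _x_at and _s_at probe sets. Nuclear partners called higher numbered 1 after quantile normalization, with no filter and with no trend, and 1 to 2 when 1 array was left out. LXR and sterol transport genes called higher numbered 2 after each of the 3 normalizations, with no trend, with the mean of probe sets and on dropping _x_at and _s_at probe sets, 0 with the stricter filter, and 0 to 2 when 1 array was left out. In that last list, 7 genes were called lower on dropping _x_at and _s_at probe sets. Some of these counts fell because genes were no longer measured. NR1H3 lay below the stricter filter signal of 198.8, and CREB3 and ABCG1 were tested only by _s_at probe sets. Where not said, the cause was not tested. The difference between the changes of SREBF1 and SREBF2 ranged from -0.087 to 0.31 when 1 array was left out, turning without high glucose replicate 2. Leaving out an array leaves a group with 1, which is assumed to vary like the other. The replicate numbers did not pair the arrays (correlation of same-numbered deviations 0.0077 across probe sets). With the replicate block 13842 probe sets were called in all, 11 members were lower, and no member call changed.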
